A study of Canis lupus familiaris with 29 samples.

Results

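Adrenal steroid hormones are made from cholesterol by a short chain of enzymes, and 10 genes of that chain were followed here in canine adrenal tissue: STAR, CYP11A1, HSD3B2, CYP17A1, CYP21A2, CYP11B2, HSD11B2, FDX1, FDXR and POR. They were chosen by name for their role in steroid synthesis, and HSD11B2, which inactivates cortisol, is counted with them. Earlier results of these data were known at that choice, and the study names several of these genes from these samples. Counts of the 10 beside all genes thus describe them and are no independent support. The exon count table held 30951 genes, and 9 of the 10 were found in it by their gene name. CYP11B2 has no name in that table and was matched through the Ensembl identifier that the study's gene table gives for it, which makes 10 of 10.

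RNA sequencing was done on 29 samples, each from a different dog. They were 10 normal adrenal medullas (NAMs) and 19 pheochromocytomas or paragangliomas (PPGLs), which are tumors of the chromaffin cells of the medulla and of related ganglia. The authors divided the tumors by their place in a principal component analysis into PPGL group 1 (7 samples) and PPGL group 2 (12 samples). The NAMs came from healthy research dogs and the tumors from patients of several clinics, so that tissue and origin of the dog cannot be told apart. Because the tumor groups were drawn from the same expression data, p-values that involve them describe the split. The labels give no breed, age or sequencing batch.

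As background, the STAR protein carries cholesterol to the inner mitochondrial membrane, where CYP11A1 turns it into pregnenolone, and HSD3B2, CYP17A1, CYP21A2 and P450 11B enzymes finish the mineralocorticoids, glucocorticoids and androgens. These enzymes are known from the adrenal cortex, where CYP17A1 works in the zona fasciculata and zona reticularis and aldosterone synthase in the zona glomerulosa. The medulla, which the cortex surrounds, is known for catecholamines, although its PNMT depends on cortical glucocorticoid.

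Total counts per sample ran from 19258054 to 35918182 in NAMs, from 18493540 to 31919833 in group 1 and from 18208718 to 24569667 in group 2. Levels are given as CPM, the counts of a gene scaled to a common library size after TMM normalization. A level of 3 counts, taken as the floor, lay between 0.0779 and 0.175 CPM depending on the sample. Levels at or under the floor, and ratios that rest on them, are printed as measured and have no firm size. Intervals and floors cover counting error only.

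Together the 10 genes took a lowest of 1.60%, a median of 3.76% and a highest of 6.26% of all counts in NAMs. In group 1 the lowest, median and highest shares were 0.0134%, 0.0298% and 0.131%, and in group 2 they were 0.0301%, 0.395% and 3.43%. The lowest tumor share, in group 1 sample 7, had an exact Clopper-Pearson 95% interval of 0.0129% to 0.0139%, and the highest, in group 2 sample 10, of 3.43% to 3.44%. Every group 1 sample was below every NAM, while group 2 sample 10 lay inside the NAM range. Fewer cells of a type and less RNA per cell cannot be told apart in such bulk samples.

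Tested across all genes with edgeR, 9 of the 10 genes were lower in PPGLs than in NAMs at an FDR-adjusted p below 0.05, against 15.2% of 14766 genes tested. The median log2 fold change (log2 FC) of the 10 was -2.97, beside 0.13 over all genes. STAR, CYP11A1, CYP21A2 and FDX1 also had a log2 FC under -3, 4 of 10 against 0.792% of all genes. Without group 2 sample 10 the median of the 10 was -3.61, and CYP17A1 (-3.62), CYP11B2 (-3.62), HSD11B2 (-3.60) and FDXR (-3.34) were under -3 as well. With all 3 groups in 1 fit, the PPGL value was the mean of the group 1 and group 2 log2 FC. Averaged on the log scale, the very low group 1 levels weigh more than in a mean of levels. In that fit all 10 were lower, with a median of -5.07. The log2 FC was -6.27 for CYP11A1, -6.01 for CYP21A2, -5.89 for CYP11B2 and -5.69 for CYP17A1. For HSD11B2 it was -5.19, for HSD3B2 -4.95 and for FDX1 -4.26. None of the 10 had every PPGL below every NAM, which held for 0.481% of genes. HSD3B2 was the exception to the test, with a log2 FC of -2.23 ± 1.03 (SE) and an FDR-adjusted p of 0.0889, and passed without group 2 sample 10 (-2.94, FDR-adjusted p = 0.0216).

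By group, all 10 genes were lower in group 1 than in NAMs, against 14.7% of 14587 genes, with a median log2 FC of -8.17 (-9.18 without group 1 sample 6, -7.00 with DESeq2) beside 0.13. All 10 also had the 7 group 1 samples below the 10 NAMs with no overlap, which 4.33% of genes showed. In group 2 against NAMs 9 of 10 were lower, against 18% of 14428 genes, with a median of -2.38 beside 0.09. Without group 2 sample 10 it was 10 of 10, with a median of -2.94. No member was free of overlap there, which 1.41% of genes were. These comparisons share the NAMs.

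Between the tumor groups, called at an FDR-adjusted p below 0.1, 9 of 10 genes were lower in group 1 than in group 2, against 2.95% of 14666 genes. Their median log2 FC was -6.21, beside 0.04 over all genes, and it was -6.87 without group 1 sample 6 and -5.59 without group 2 sample 10. A log2 FC under -3 was reached by 7 of the 10, CYP11A1, HSD3B2, CYP17A1, CYP21A2, CYP11B2, HSD11B2 and FDX1, against 1.11% of all genes. Only CYP21A2 had every group 1 sample below every group 2 sample, 1 of 10 against 0.15% of genes. All 10 genes passed the filter on low counts in each comparison.

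**Figure D1:**
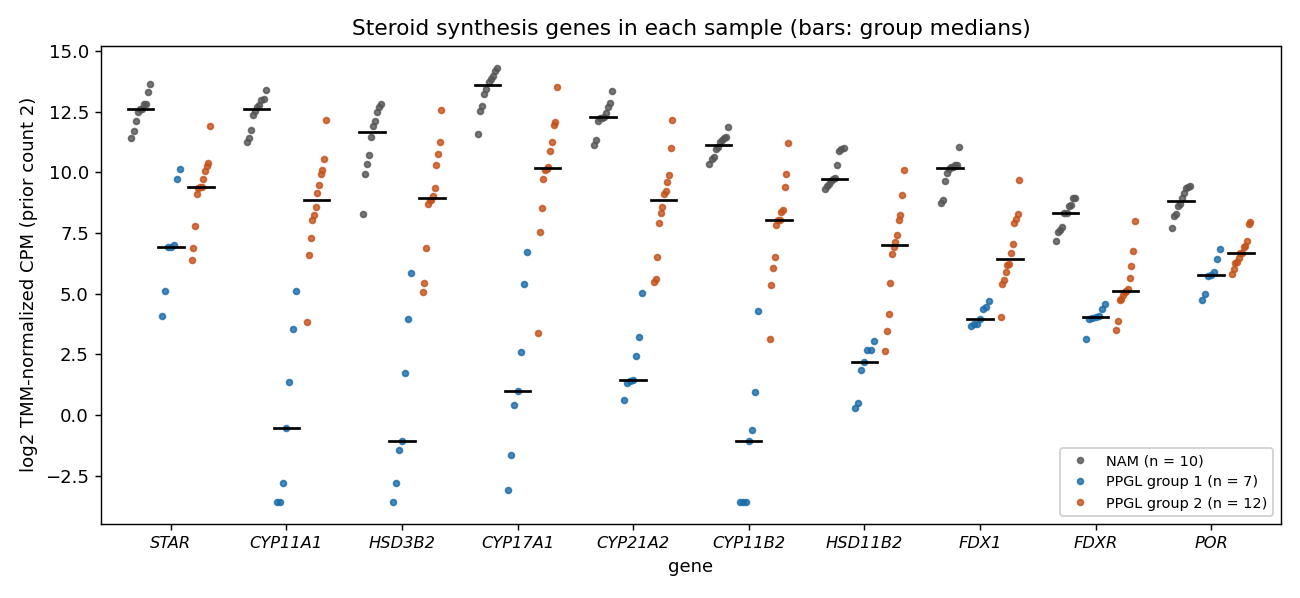
Log2 TMM-normalized CPM of the 10 genes, 1 point per sample, by NAM (10 samples), PPGL group 1 (7) and PPGL group 2 (12). Group 1 lies below the NAMs for every gene, with CYP11A1 at a median of 0.613 CPM beside 6226 in NAMs.

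STAR (ENSCAFG00000006126, CanFam3.1 chromosome 16, 27326355 to 27331025) brings cholesterol into the mitochondrion. Its lowest, median and highest levels were 2750, 6257 and 12910 CPM in NAMs, 16.9, 122.5 and 1131 CPM in group 1, and 83.0, 674 and 3880 CPM in group 2. Of the group 1 samples 5 of 7 lay inside the group 2 range, with samples 1 and 2 the highest at 1131 and 846 CPM, and samples 5 and 7 lay below it. Among the 19 tumors only group 2 sample 10 reached the NAM range. STAR was lower in PPGLs than in NAMs at a log2 FC of -3.19 ± 0.55 (FDR-adjusted p = 6.78e-05), in 18 of 19 tumors below every NAM. Its log2 FC against NAMs was -4.26 ± 0.78 in group 1 and -2.80 ± 0.49 in group 2. It was the 1 gene of the 10 without a call between the tumor groups, at -1.43 ± 0.79 and an FDR-adjusted p of 0.333. Without group 1 sample 1 the group 1 log2 FC was -4.96 against NAMs and -2.15 against group 2.

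CYP11A1 (ENSCAFG00000017888, chromosome 30, 37473901 to 37487507) cleaves the side chain of cholesterol, the entry step of all steroid hormones. It measured 2408, 6226 and 10622 CPM (lowest, median, highest) in NAMs, 0, 0.613 and 34.4 CPM in group 1, and 14.3, 475 and 4540 CPM in group 2. In group 1 the counts were 14, 53, 0, 259, 2, 590 and 0 in samples 1 to 7, so that samples 3, 5 and 7 were at or under the floor and samples 4 and 6 carried most of the signal. Group 1 sample 6 was the 1 sample of its group within the group 2 range. The log2 FC was -3.43 ± 1.02 for PPGLs against NAMs (FDR-adjusted p = 0.00909), -9.75 ± 1.46 in group 1 and -2.77 ± 0.62 in group 2. Group 1 was lower than group 2 at -6.96 ± 1.53 (FDR-adjusted p = 0.0202). Without group 1 sample 6 the group 1 values were -11.29 and -8.49, and without group 2 sample 10 the log2 FC was -4.16 for PPGLs, -3.45 for group 2 and -6.28 between the tumor groups. The PPGL value was -6.27 with all 3 groups in 1 fit.

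FDX1 and FDXR, ferredoxin and its reductase, hand electrons to CYP11A1 and the P450 11B enzymes in the mitochondrion. FDX1 (ENSCAFG00000014236, chromosome 5, 22451209 to 22485395) measured 429, 1155 and 2105 CPM in NAMs, 12.8, 15.5 and 25.7 CPM in group 1, and 16.5, 87.6 and 821 CPM in group 2. Group 1 was narrow, with every sample well above the floor, and its top overlapped the bottom of group 2. FDX1 had a log2 FC of -5.94 ± 0.36 in group 1 (FDR-adjusted p = 2.96e-08) and -2.56 ± 0.51 in group 2 (FDR-adjusted p = 0.000498). Between the tumor groups the log2 FC was -3.37 ± 0.66 (FDR-adjusted p = 0.0112).

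FDXR (ENSCAFG00000004638, chromosome 9, 5567328 to 5577277) measured 146, 323 and 499 CPM in NAMs, 8.75, 16.3 and 23.8 CPM in group 1, and 11.4, 34.2 and 257 CPM in group 2. Most group 1 samples lay inside the group 2 range, with 1 of 7 below every group 2 sample. Its log2 FC was -4.23 ± 0.31 in group 1 against NAMs and -2.43 ± 0.44 in group 2 against NAMs, both called. The difference between tumor groups, -1.79 ± 0.52, passed at an FDR-adjusted p of 0.0636 and did not pass without group 1 sample 7 (0.121) or by the Mann-Whitney test (0.170). FDXR exons share 456 bases with GRIN2C on the same strand, and GRIN2C itself had medians of 143, 2.17 and 11.4 CPM in NAMs, group 1 and group 2, so its part in the FDXR values was not tested.

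POR (ENSCAFG00000013467, chromosome 6, 7263574 to 7316297) is the electron donor of the microsomal P450 enzymes CYP17A1 and CYP21A2, and it works in most tissues. It measured 207, 452 and 694 CPM in NAMs, 26.8, 54.9 and 113 CPM in group 1, and 55.5, 102 and 246 CPM in group 2. Of the group 2 samples 2 lay within the NAM range, and 4 of 7 group 1 samples lay below every group 2 sample. POR was lower in PPGLs at -2.26 ± 0.27 (FDR-adjusted p = 7.18e-07), at -2.95 ± 0.33 in group 1 and at -1.97 ± 0.26 in group 2. The difference between tumor groups, -0.98 ± 0.32, sat at the threshold (FDR-adjusted p = 0.0968) and was lost under 5 of 10 other settings and in 14 of 19 refits with 1 sample left out.

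HSD3B2 (ENSCAFG00000010039, chromosome 17, 56552945 to 56561062) turns pregnenolone into progesterone. It measured 308, 3320 and 7298 CPM in NAMs, 0, 0.394 and 57.7 CPM in group 1, and 33.5, 495 and 5991 CPM in group 2. NAM sample 3, at 308 CPM or 9.29% of the NAM median, stood far below the other NAMs, and 9 of 12 group 2 samples lay within the NAM range that it widens. HSD3B2 was called in group 1, at -8.31 ± 1.51 (FDR-adjusted p = 0.000432), and between the tumor groups, at -6.73 ± 1.58 (FDR-adjusted p = 0.0259). In group 2 against NAMs it was not, at -1.57 ± 0.69 and an FDR-adjusted p of 0.0729, and without group 2 sample 10 the log2 FC was -2.24 with an FDR-adjusted p of 0.00798. That sample held 5991 CPM, 180% of the NAM median, and the tumor groups differed by -6.06 without it. Leaving out group 1 sample 6 gave -10.10 against NAMs and -8.51 against group 2.

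CYP17A1 (ENSCAFG00000010279, chromosome 28, 15293106 to 15298852), the 17-hydroxylase of the cortisol and androgen branches, measured 3054, 12299 and 20359 CPM in NAMs, 0.0336, 1.88 and 104 CPM in group 1, and 10.3, 1155 and 11731 CPM in group 2. Group 1 sample 7 held 1 count, group 1 samples 4 and 6 were the highest of theirs at 42.6 and 104 CPM, and 3 of 12 group 2 samples were within the NAM range. CYP17A1 was lower in PPGLs at -2.96 ± 1.01 (FDR-adjusted p = 0.0217), in group 1 at -9.06 ± 1.42 and in group 2 at -2.30 ± 0.66. Group 1 against group 2 gave -6.75 ± 1.54 (FDR-adjusted p = 0.0243). With group 1 sample 6 left out, group 1 stood at -10.44 against NAMs and -8.12 against group 2. With group 2 sample 10 left out, the values were -3.62 for PPGLs, -2.91 for group 2 and -6.13 between the tumor groups. In 1 fit of all 3 groups the PPGL value was -5.69.

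CYP21A2 (ENSCAFG00000000712, chromosome 12, 1450677 to 1453734) is the 21-hydroxylase, used for both aldosterone and cortisol. Its levels were 2264, 4919 and 10316 CPM in NAMs, 1.45, 2.62 and 32.2 CPM in group 1, and 44.8, 469 and 4575 CPM in group 2. All 7 group 1 samples were below all 12 group 2 samples, and no group 1 sample was at the floor. The log2 FC was -3.25 ± 0.89 for PPGLs against NAMs (FDR-adjusted p = 0.00504; -6.01 with all 3 groups in 1 fit), -9.40 ± 0.82 in group 1, -2.59 ± 0.62 in group 2 and -6.80 ± 1.14 between the tumor groups (FDR-adjusted p = 0.00541). Leaving out group 1 sample 6 moved the group 1 values to -10.44 and -7.83, and leaving out group 2 sample 10 moved the others to -3.98 for PPGLs, -3.28 for group 2 and -6.12 between the tumor groups. Its exons share 264 bases with TNXB on the opposite strand, and TNXB had medians of 13.6, 5.34 and 7.81 CPM in NAMs, group 1 and group 2. The part of TNXB in the CYP21A2 counts was not tested.

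CYP11B2 (ENSCAFG00000001285, chromosome 13, 36871435 to 36883229) is named for aldosterone synthase. The dog gene table of RefSeq lists CYP11B2 once and no CYP11B1, so the 11-hydroxylase step of cortisol has no gene of its own here and the zone of these counts was not tested. The gene measured 1294, 2268 and 3749 CPM in NAMs, 0, 0.394 and 19.3 CPM in group 1, and 8.61, 265 and 2393 CPM in group 2. Group 1 samples 3, 5 and 7 had 0 counts and sample 6 had 331, more than all other samples of its group together. The log2 FC was -9.51 ± 1.38 in group 1 (FDR-adjusted p = 5.96e-05), -2.25 ± 0.60 in group 2 (FDR-adjusted p = 0.00498) and -7.23 ± 1.55 between the tumor groups (FDR-adjusted p = 0.0174). Without group 1 sample 6 the group 1 values were -12.27 against NAMs and -9.98 against group 2. Without group 2 sample 10 they were -2.92 for group 2 and -6.57 between the tumor groups. With DESeq2 the group 1 value was -3.69 at an FDR-adjusted p of 0.0471, within a range of 1.21e-05 to 0.0471 over its other settings.

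HSD11B2 (ENSCAFG00000020362, chromosome 5, 81966937 to 81968991) inactivates cortisol to cortisone. It measured 642, 856 and 2054 CPM in NAMs, 1.14, 4.50 and 8.17 CPM in group 1, and 6.21, 130 and 1082 CPM in group 2. All group 1 samples were above the floor, and 4 of 7 lay below every group 2 sample. HSD11B2 was lower at -8.03 ± 0.55 in group 1 (FDR-adjusted p = 6.06e-08), -2.33 ± 0.64 in group 2 (FDR-adjusted p = 0.00565) and -5.69 ± 1.01 between the tumor groups (FDR-adjusted p = 0.00606).

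Levels of different genes were compared as CPM per kilobase of exon. The order of the medians in NAMs was STAR 6559, CYP17A1 5899, CYP21A2 2362, HSD3B2 2003, CYP11A1 1960, FDX1 1744, HSD11B2 767, CYP11B2 436, FDXR 143 and POR 137. Neighbors in that order overlapped in range except CYP11B2 and FDXR, whose ranges of 249 to 721 and 64.4 to 220 CPM per kilobase did not meet. In group 2 the order began with STAR at 706 and CYP17A1 at 554 and ended with POR at 30.8 and FDXR at 15.1. In group 1 it was led by STAR at 128, FDX1 at 23.4 and POR at 16.6, with CYP11A1 at 0.193 and CYP11B2 at 0.0758 at the bottom.

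**Figure D2:**
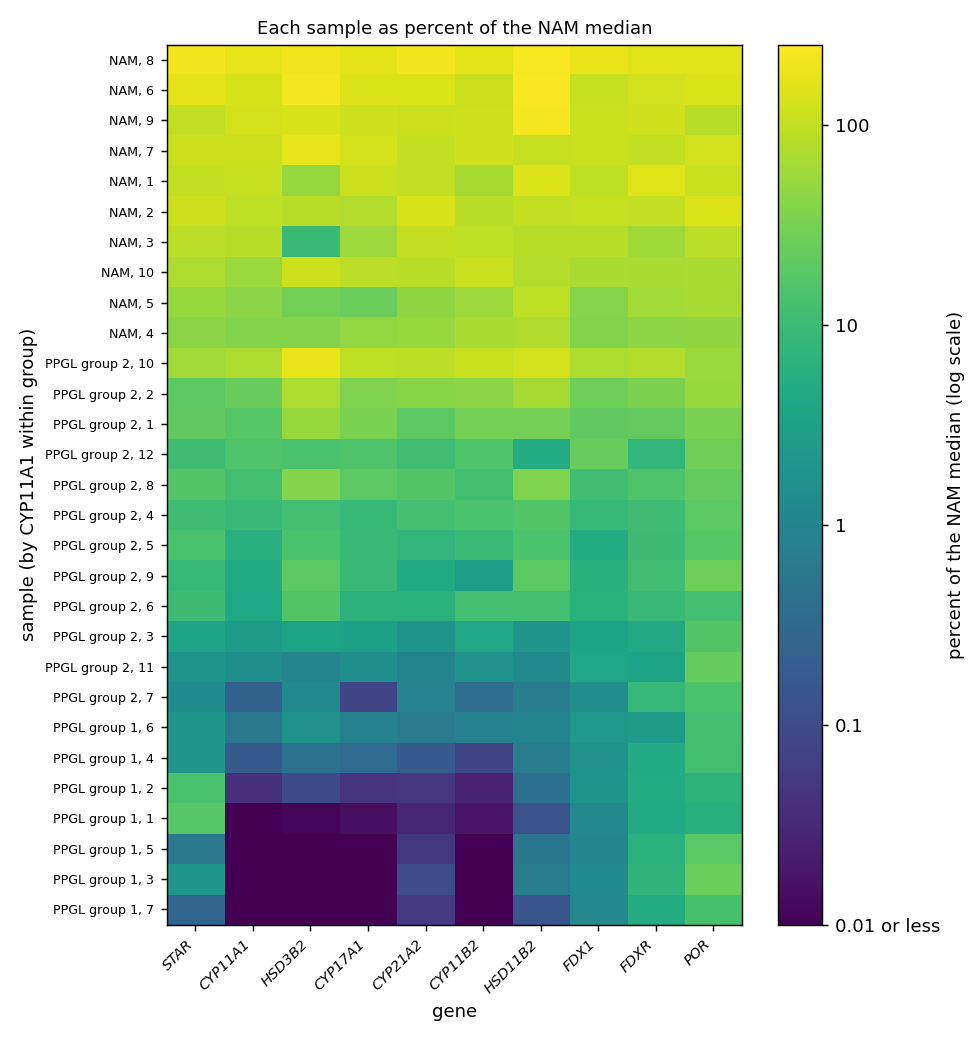
Level of each gene in each sample as a percentage of the NAM median of that gene, colored on a log scale with values at or below 0.01% shown at 0.01%. Group 2 sample 10 had a median over the 10 genes of 86.2%, and group 1 sample 1 of 0.0812% with STAR at 18.1%.

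Each sample was also described by its levels as a percentage of the NAM median of each gene. Group 2 sample 10 ranked first of its group for all 10 genes, lay within the NAM range for all 10, and had a median of 86.2%. Group 2 samples 2 and 1 followed with medians of 38.4% and 25.9%, and samples 3, 11 and 7 were lowest with 3.56%, 1.66% and 1.10%. Sample 7 was last for 7 of the 10 genes, with CYP17A1 at 0.0837% but POR at 14.5%.

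In group 1 no sample was within the NAM range for any of the 10 genes. Sample 6 ranked first in its group for 7 genes and had the highest median, 1.35%, while it was lowest for FDXR. The highest gene was STAR in samples 1 and 2, at 18.1% and 13.5%, and POR in samples 3 to 7, between 11.6% and 25.1%. Samples 1 and 7 had the lowest medians of 0.0812% and 0.103%.

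Among NAMs, sample 8 ranked first for 7 genes with a median of 176%, and sample 4 ranked last for 6 with a median of 45.5%. Sample 5 was lowest for CYP17A1, at 24.8%, and highest of its own values for HSD11B2, at 93.9%.

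Ratios within a sample do not depend on library scaling, and 10 ratios were tested in 4 comparisons, as log2 count ratios by exact or resampled two-sided permutation tests. Samples with fewer than 20 counts of the 2 genes together were left out, and p-values were adjusted over the 40 tests. Of these, 15 had an adjusted p below 0.05, all higher in the first group named: 1 for PPGLs against NAMs, 7 for group 1 against NAMs, 2 for group 2 against NAMs and 5 for group 1 against group 2. By rank sums more passed for PPGLs against NAMs. These were CYP17A1 (adjusted permutation p = 0.028), STAR (0.0262), HSD11B2 (0.0331) and FDX1 (0.0036) to CYP11A1, and FDXR to FDX1 (0.0296). FDX1 to CYP11A1 stood at 0.0503 in the main test. It also passed with 1 count added (0.0482) and in several refits with 1 sample left out. Losses by rank sums are given with each ratio below. Ratio levels are given per exon length.

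The ratio of CYP17A1, absent from the zona glomerulosa in textbook accounts, to CYP11B2 had a lowest, median and highest of 5.89, 12.8 and 22.6 in NAMs and 2.98, 11.9 and 41.8 in group 2. Of the 12 group 2 samples 9 lay within the NAM range, and the difference of log2 means was -0.03 ± 0.31 (adjusted permutation p = 0.956). In 5 group 1 samples with enough counts it was 11.4, 25.2 and 132, with a difference from NAMs of 1.36 ± 0.68 (exact p = 0.0167, adjusted p = 0.0444). That difference was 0.84 without group 1 sample 3, whose ratio rests on 26 counts against 0 (exact adjusted p = 0.139). The call was lost with 1 count added, with a minimum of 100 counts and by rank sums. It was also lost in 13 of the 29 refits with 1 sample left out. Some of those left out group 1 sample 5 or 7, which are not in this comparison, and there the difference itself did not move. Against group 2 the difference was 1.39 ± 0.71 (exact adjusted p = 0.0531), and it passed without group 1 sample 1 or 6 or group 2 sample 8 or 9.

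The ratio of CYP17A1 to CYP21A2 passed in none of the 4 comparisons, with medians of 2.39 in NAMs, 3.098 in group 2 and 1.30 in group 1. The adjusted permutation p nearest the threshold was 0.0531, for group 1 against group 2, at a log2 difference of -2.11 ± 1.18, which was -1.29 without group 1 sample 7 and -0.54 with a minimum of 100 counts. It fell below 0.05 without group 2 sample 7 (exact adjusted p = 0.0261) and without group 1 samples 2, 4 or 6, and for group 2 against NAMs without group 2 sample 7 (adjusted permutation p = 0.0282). For group 1 against NAMs the log2 difference was -1.88 ± 1.14 (exact adjusted p = 0.0912). It was -2.38 without group 1 sample 4 (exact adjusted p = 0.0481) and -1.06 without group 1 sample 7 (0.232). With a minimum of 100 counts it was -0.31 (adjusted permutation p = 0.710). CYP11B2 to CYP11A1 also passed in none, with medians of 0.229, 0.352 and 0.243 in NAMs, group 2 and 4 group 1 samples.

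The ratio of HSD3B2 to CYP11A1 was higher in group 2, and in all PPGLs together, than in NAMs. It ran from 0.112 through a median of 1.04 to 2.11 in NAMs and from 0.673 through 2.77 to 5.73 in group 2, with 8 of 12 group 2 samples above every NAM. For group 2 the log2 difference was 1.40 ± 0.47 (permutation p = 0.00403, adjusted p = 0.0161). For PPGLs it was 1.39 ± 0.44 (permutation p = 0.00128, adjusted p = 0.0064). The lowest NAM ratio, 0.112 in NAM sample 3, lay far below the next at 0.487 and enlarges both differences. Both calls held with that sample left out. In the 4 usable group 1 samples the median was 2.52 and the log2 difference 1.37 ± 0.48 (exact p = 0.049, adjusted p = 0.0912). By rank sums this test passed (adjusted permutation p = 0.0331).

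STAR to CYP11A1 separated group 1 from the NAMs. The ratio was 2.57, 3.92 and 4.31 in NAMs, 12.3, 1553 and 17148 in group 1, and 2.28, 4.38 and 19.3 in group 2. All 7 group 1 samples were above every NAM and 6 of 7 above every group 2 sample, with log2 differences of 7.81 ± 1.46 from NAMs (exact p = 5.14e-05, the smallest it can give, adjusted p = 0.000514) and 7.39 ± 1.48 from group 2 (exact adjusted p = 0.000514). Group 2 differed from NAMs by 0.42 ± 0.25 (adjusted permutation p = 0.204). Each group 1 ratio to CYP11A1 rests on CYP11A1 counts between 0 and 590, so the largest values have no firm size. Without group 1 sample 3, 4 or 6 the difference was 7.08, 8.57 and 8.82 from NAMs and 6.66, 8.14 and 8.40 from group 2.

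FDX1 and HSD11B2 also stood higher against CYP11A1 in group 1. The log2 difference from NAMs was 7.38 ± 1.52 for FDX1 (exact adjusted p = 0.000514) and 5.04 ± 1.52 for HSD11B2 (exact adjusted p = 0.00137), with 7 of 7 and 6 of 7 samples above every NAM. From group 2 it was 6.82 ± 1.54 and 4.73 ± 1.54 (exact adjusted p = 0.000514 and 0.00306). Without group 1 sample 3, 4, 6 or 7 the FDX1 difference was 6.64, 8.06, 8.27 and 6.59 from NAMs and 6.08, 7.49, 7.70 and 6.03 from group 2. For HSD11B2 the same 4 values were 4.14, 5.63, 5.83 and 4.43 from NAMs and 3.83, 5.32, 5.53 and 4.13 from group 2. All kept an exact adjusted p below 0.05. For FDX1 in group 2 it was 0.56 ± 0.24 (adjusted permutation p = 0.0444). The call was lost with a minimum of 100 counts (adjusted permutation p = 0.0601) and in 16 refits with 1 sample left out. The difference itself stayed at 0.56 with that minimum and lay between 0.48 and 0.58 in those refits. Some of them left out group 1 sample 3, 5 or 7, which are not in this comparison.

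CYP21A2 and CYP17A1 against CYP11A1 passed in group 1 on few samples. The CYP21A2 ratio differed from NAMs by 3.13 ± 1.38 (exact adjusted p = 0.0264), and without sample 3, 5 or 7 the exact adjusted p was 0.0639, 0.0549 and 0.0549, with a difference of 2.33 without sample 3 and 2.42 without sample 7. Against group 2 it differed by 3.02 ± 1.39 (exact adjusted p = 0.0328), which was also lost without each of those samples and was 2.22 without sample 3 and 2.31 without sample 7. With a minimum of 100 counts the CYP21A2 values were 1.98 (exact adjusted p = 0.256) and 1.87 (0.254), and by rank sums neither passed (0.105 and 0.211). The CYP17A1 ratio differed from NAMs by 1.46 ± 0.85 in 5 samples (exact adjusted p = 0.0133), and by 0.63 without sample 3 (exact adjusted p = 0.0639) or with a minimum of 100 counts (0.123).

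FDXR to FDX1, the pair of one electron chain, had medians of 0.0857 in NAMs, 0.342 in group 1 and 0.101 in group 2. Group 1 was higher than NAMs by 1.68 ± 0.32 (exact adjusted p = 0.00123), in 6 of 7 samples above every NAM, and higher than group 2 by 1.36 ± 0.40 (exact adjusted p = 0.0179), though no group 1 sample was above every group 2 sample. Without group 1 sample 3 the exact adjusted p against group 2 was 0.0511.

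**Figure D3:**
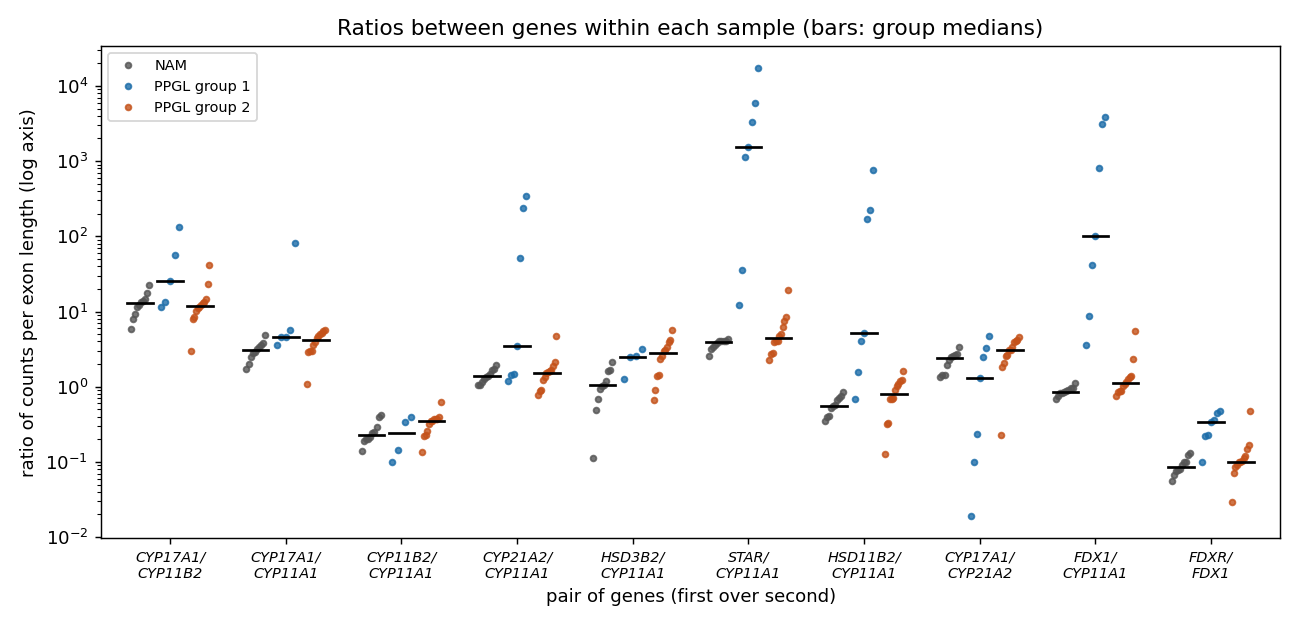
Ratios between enzymes per exon length on a log axis, 1 point per sample with at least 20 counts of the pair, by group. STAR to CYP11A1 lies between 2.57 and 4.31 in NAMs and between 12.3 and 17148 in group 1.

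Within a group, each enzyme was set against CYP11A1 across samples in log2 CPM. In the 12 group 2 tumors all 9 correlations passed, with Pearson's r of 0.982 for CYP17A1, 0.967 for CYP11B2, 0.958 for FDX1, 0.946 for STAR, 0.945 for CYP21A2, 0.909 for HSD3B2, 0.889 for HSD11B2, 0.754 for POR and 0.748 for FDXR. Of 12801 named genes outside the 10, 1.04% had an r as high as that of FDXR, 0.961% as POR and 0.219% or less as each of the other 7. Spearman's rho was 0.972 for CYP17A1 (permutation p = 2e-05) and 0.797 for FDXR (permutation p = 0.00276, adjusted p = 0.00331). Their r had permutation p-values of 1e-05, the smallest possible with 100000 resamples (adjusted p = 2.45e-05), and 0.00694 (adjusted p = 0.00781). Without samples 7 and 10, the farthest from the median of CYP11A1, r ranged from 0.649 for POR to 0.964 for CYP17A1. The slope was 1.20 log2 units per unit of CYP11A1 for CYP17A1, 0.69 for STAR and FDX1, 0.43 for FDXR and 0.24 for POR.

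In the 10 NAMs r was 0.961 for FDX1, 0.949 for STAR, 0.909 for CYP21A2, 0.885 for FDXR, 0.871 for POR, 0.853 for CYP17A1, 0.817 for HSD11B2 and 0.736 for CYP11B2, all with adjusted permutation p below 0.05. Many other genes rose with CYP11A1 across the NAMs, so that of the 12801 an r as high was reached by 0.133% for FDX1, 0.297% for STAR, 1.49% for CYP21A2, 2.43% for FDXR, 3.06% for POR, 3.87% for CYP17A1, 5.66% for HSD11B2 and 10.0% for CYP11B2. HSD3B2 had an r of 0.561 (permutation p = 0.0896, adjusted p = 0.0896), reached by 19.9%, and a rho of 0.818 (permutation p = 0.00593, adjusted p = 0.0064). For CYP11B2 rho was 0.758 (permutation p = 0.0148, adjusted p = 0.0148), and r was 0.484 without NAM samples 4 and 5, so that this relation rests on them. In all 27 correlations were computed, 9 of them over the 19 tumors together. Those are not given, since the tumor groups lie almost apart in CYP11A1.

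As a measure of likeness only, the named genes outside the 10 with the highest r to CYP11A1 over the 19 tumors, of 12801 ranked, were HAO2 (0.951), MRAP (0.947), LMAN1L (0.941), MC2R (0.931), ENPP2 (0.931), KCNK2 (0.927), ENPP7 (0.915), ZFP92 (0.915), ACSBG1 (0.884) and NR0B1 (0.880). This r includes the distance between the tumor groups. Over the 10 NAMs they were CHCHD10 (0.986), WDR61, RPS27, NDUFB2, PRELID1, RPS27A, POLR2E, ACSF2, ATP5F1E and NAA20 (0.968).

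Lists of other genes were counted in the same tests, and some genes stand in more than 1 list. Of all genes, 15.2% were lower and 22.3% higher in PPGLs than in NAMs. Against NAMs, 14.7% were lower and 21.1% higher in group 1, and 18% and 22.9% in group 2. In group 1 against group 2 the shares were 2.95% lower and 3.97% higher. Of the 13 tested other steroid enzymes 4 were lower and 3 higher in PPGLs than in NAMs, the latter near the share of all genes, with a median log2 FC of -0.16 beside 0.13 over all genes. H6PD, which feeds HSD11B1 with NADPH, was lower (-1.56 ± 0.24, FDR-adjusted p = 1.33e-05) and so was CYP1B1 (-2.72 ± 0.62, FDR-adjusted p = 0.00113), while HSD17B7 was higher (0.85 ± 0.16, FDR-adjusted p = 0.000176). HSD17B2 was at 0 in all NAMs and tumors, and AKR1C3 in all NAMs and 18 of 19 tumors. Among 7 redox genes, of which CYB5A is also 1 of the 13 enzymes, 3 were lower and 1 higher, with the mitochondrial peroxidase PRDX3 at -1.90 ± 0.26 (FDR-adjusted p = 3.1e-06) and CYB5R3 at 0.95 ± 0.21 (FDR-adjusted p = 0.000907). Between tumor groups 1 of the 13 enzymes passed, SRD5A1 at 0.82 ± 0.27 (FDR-adjusted p = 0.092), and the smallest FDR-adjusted p of the redox genes was 0.139, for PRDX3 at -0.84 ± 0.31.

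The shares of all genes were 15.2% lower and 22.3% higher in PPGLs, and 2.95% lower in group 1 than in group 2. Of 22 cholesterol supply genes 12 were lower and 3 higher in PPGLs (median log2 FC -0.56), with LIPA, a lysosomal lipase, at -1.78 ± 0.21 and the cholesterol exporter ABCA1 at -1.67 ± 0.25. In group 1 against group 2, 3 were lower, APOC1 (-4.02 ± 0.69), SOAT1 and SCARB1. Of 15 cortical regulators 10 were lower and 1 higher in PPGLs (median log2 FC -1.87), with the inhibin subunit INHA at -3.55 ± 0.52 and the transcription co-regulator CITED2 at 1.36 ± 0.25, and 6 were lower in group 1 than in group 2.

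Markers of the cortical zones were counted in the same way. The shares of all genes were 15.2% lower and 22.3% higher in PPGLs and 14.7% and 21.1% in group 1. They were 18% and 22.9% in group 2, and 2.95% were lower in group 1 than in group 2. Of 7 tested genes of the zona fasciculata and reticularis 6 were lower in PPGLs (median log2 FC -3.15) and 4 were lower in group 1 than in group 2, with MRAP, a partner of the ACTH receptor, at -6.35 ± 1.33 (FDR-adjusted p = 0.0159). The summed level of the 8 genes of that list in the table was 1932, 4610 and 8566 CPM in NAMs, 85.4, 130 and 176 CPM in group 1, and 71.7, 447 and 3679 CPM in group 2, with SCARB1 the most abundant. Of 15 zona glomerulosa genes 6 were lower and 2 higher in PPGLs (8 and 2 in group 1, 8 and 4 in group 2, median -1.11 in PPGLs), with LEF1 at -1.84 ± 0.38 and ATP2B3 at 1.27 ± 0.28. In group 1 against group 2, 3 of 13 were lower, LEF1, DAB2 and VSNL1. The zona glomerulosa sum was 798, 1212 and 1832 CPM in NAMs, 169, 570 and 1032 CPM in group 1, and 538, 1034 and 1243 CPM in group 2, with CACNA1H the most abundant. The part of these markers in the enzyme levels was not tested.

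The label of medulla was set against chromaffin genes. In NAMs TH, the first enzyme of catecholamine synthesis, had a lowest, median and highest of 1057, 1420 and 5970 CPM and DBH 4955, 6642 and 17272 CPM, so that chromaffin and cortical enzymes were both abundant in every NAM. Of 15 chromaffin genes 1 was lower, PNMT at -1.94 ± 0.64, and 4 were higher in PPGLs, among them PHOX2A at 2.17 ± 0.24, with 0 lower and 5 higher in group 1 and 2 lower and 6 higher in group 2. The higher count in PPGLs is near the 22.3% of all genes, and the median log2 FC was 0.57. Among all genes 14.7% were lower and 21.1% higher in group 1, and 18% and 22.9% in group 2. Summed, they measured 18508, 32831 and 98650 CPM in NAMs, 9345, 37198 and 120205 CPM in group 1, and 21810, 51171 and 106498 CPM in group 2, with CHGB the most abundant. Between tumor groups 1 passed, HAND2, higher in group 1 at 1.02 ± 0.30 (FDR-adjusted p = 0.0638).

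Other cell types were followed by their markers, given as the count called in PPGLs against NAMs and the median summed level in NAMs, group 1 and group 2. Sums take in every gene of a list that is in the table, also those with too few counts to test. Of all genes 15.2% were lower and 22.3% higher, with 14.7% and 21.1% in group 1 and 18% and 22.9% in group 2. Leukocyte genes had 1 lower and 1 higher of 7, with a median log2 FC of 0.32 (1 and 1 in group 1, 0 and 1 in group 2), at 663, 471 and 479 CPM. That sum is led by CD79A, which itself had a log2 FC of -0.19 ± 0.24. Endothelial genes had 5 lower of 8 (1 in group 1 and 5 in group 2), at 733, 450 and 445 CPM, led by PECAM1, with TEK at -1.14 ± 0.25. Fibroblast genes had 4 higher of 8 (1 lower and 2 higher in group 1, 5 higher in group 2), at 450, 565 and 995 CPM, led by COL3A1, with COL1A1 at 3.72 ± 0.85. Schwann and sustentacular genes, 7 tested, had 0 called (0 in group 1 and 2 lower in group 2), at 108, 33.1 and 30.7 CPM, led by CDH19, which had the smallest FDR-adjusted p of the list, 0.0652, at -1.44 ± 0.62.

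The shares of all genes were 15.2% lower and 22.3% higher in PPGLs, and 14.7% and 21.1% in group 1. They were 18% and 22.9% in group 2, and 2.95% were lower in group 1 than in group 2. Liver genes had 4 lower and 2 higher of 6 (4 lower and 0 higher in group 1, 4 lower and 2 higher in group 2). Between tumor groups 2 of 5 were lower in group 1. The 10 liver genes of the table summed to medians of 360, 38.5 and 91.1 CPM, led by APOB at -4.75 ± 0.52 (FDR-adjusted p = 1.75e-07). Of 4 adipocyte genes 1 was lower (0 called in group 1, 1 lower and 1 higher in group 2), PLIN4 at -1.68 ± 0.66, the most abundant in sums of 18.2, 11.7 and 7.44 CPM. The list had a median log2 FC of 0.58, and PLIN1 was at 1.14 ± 0.50 (FDR-adjusted p = 0.0706). Of 3 tested erythroid genes 3 were higher in PPGLs (median log2 FC 4.79). In group 1 against NAMs 0 were tested, and in group 2 against NAMs 1 of 1 was higher. Between tumor groups 1 of 4 was lower. The 5 erythroid genes of the table summed to 0.312, 2.45 and 3.98 CPM, led by ALAS2. The highest NAM sum was 0.839 CPM, so these genes passed the low-count filter mainly through the tumors. Calls of higher against NAMs were thus close to fixed in advance, and their log2 FC has no firm size. The part of these cells in the enzyme levels was not tested.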

How the data were processed

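The deposited table holds raw counts of reads over exons per gene, made by the authors from single-end 50 bp reads of stranded mRNA libraries. The submitters' processing notes name FastQC, the STAR aligner (a program, not the gene STAR), Picard and HTSeq with CanFam3.1, while the table's own name points to featureCounts, so that the counting tool is uncertain. Strand and multiple mapping settings are not given in the sources used here. Counts were tested with edgeR 4.0.16 in R 4.3.3: filterByExpr (minimum count 10, minimum total 15), TMM scaling, quasi-likelihood F test and Benjamini-Hochberg adjustment over all genes tested. Each comparison was fitted on its own samples. Ratios and correlations used permutation tests (scipy 1.17.1, 100000 resamples where not exact), with 0.5 added to each count of a ratio and a prior count of 2 for log2 CPM. DESeq2 1.42.0 and limma 3.58.1 served alternatives. The procedure was tested on simulated data. Members and lists were chosen with earlier results of these data known, and the study itself names several of these genes from these samples. Named genes are the members, up to 4 genes per list with the lowest p and its most abundant gene, and the 10 most like CYP11A1 in PPGLs and in NAMs. The genes named as at 0, TH and DBH were chosen after their values were seen. Some genes and 1 marker list are not reported here.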

Additional observations from a re-analysis of the deposited data

Results flagged for a closer look

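Of 40 groups of NAM or PPGL group 1 samples checked for 1 sample far from the others, 3 held one. Chance gives about 1 in 20. PPGL group 2 was not checked, since it has more samples than the check covers. FDXR was lowest in PPGL group 1 sample 6, at a log2 CPM of 3.14 beside 3.97 for the nearest sample of the group. The log2 count ratio of CYP17A1 to CYP11A1 was highest in PPGL group 1 sample 3, at 5.73 beside 1.89 for the nearest, with 26 counts against 0. The log2 count ratio of HSD3B2 to CYP11A1 was lowest in NAM sample 3, at -4.10 beside -1.97 for the nearest. The cause of each was not tested.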

How the results depend on the processing

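Each comparison was refitted under 10 other settings and, in 87 refits, with each of its samples left out. No log2 FC of the 10 genes changed direction. The ratio of CYP17A1 to CYP21A2 for PPGLs against NAMs, without a call, did turn. Its log2 difference went from -0.55 to 0.10 with a minimum of 100 counts. Of 400 log2 FC values of the 10 genes under other settings, 386 kept their side of the threshold, 5 newly passed and 9 no longer passed. With 1 sample left out, the same counts were 853, 2 and 15 of 870. The count of the 10 genes called lower was 9 to 10 for PPGLs against NAMs, 10 throughout for group 1 against NAMs, 9 to 10 for group 2 against NAMs and, between the tumor groups, 7 to 9 with a sample left out. All 54 correlations recomputed kept their side of the threshold.

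HSD3B2 passed for PPGLs against NAMs with the Mann-Whitney test (FDR-adjusted p = 0.00269), with all 3 groups in 1 fit (log2 FC -4.95, FDR-adjusted p = 7.78e-05) and without group 2 sample 10 (-2.94, 0.0216). For group 2 against NAMs it passed with DESeq2 (FDR-adjusted p = 0.0334), the Mann-Whitney test (0.0375) and the sample number as a block (0.0464), within a range of 0.0334 to 0.171 over its other settings.

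The sample number of the labels counts different animals, and samples of equal number were no more alike than others (median r 0.00751, -0.0395 and 0.00986), so a paired fit has no basis in the design. With that number as a block, 5 of 10 genes stayed lower in group 1 than in group 2 (9 without the block). The calls lost were HSD11B2 (log2 FC -4.44, FDR-adjusted p = 0.118), FDX1 (-2.24, 0.149), FDXR (-1.23, 0.329) and POR (-0.74, 0.601). Of all genes tested with the block, 1400 were lower in group 1 than in NAMs (2147 without) and 37 lower in group 1 than in group 2 (433 without). That last count was 877 with DESeq2, 226 with the Mann-Whitney test and 1162 with all 3 groups in 1 fit, and 269 (without group 1 sample 7) to 485 with a sample left out. The median log2 FC of the 10 genes with the block was -3.96 for PPGLs against NAMs (-2.97 without), -8.97 for group 1 against NAMs (-8.17 without), -3.01 for group 2 against NAMs (-2.38 without) and -5.29 between the tumor groups (-6.21 without). Calls among the 40 ratio tests ran from 10 to 18 under other settings, and from 9 (without group 1 sample 3) to 20 with a sample left out. The cause was not tested.

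The number of reads limits group 1 most, where CYP11A1, HSD3B2, CYP17A1 and CYP11B2 had samples at or under 3 counts.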
